A study of Drosophila melanogaster with 4 samples.

Results

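The telomere-proximal 1 Mb of chromosome arms X, 2L, 3L and 3R held 655 of the 21932 regions at which Su(var)3-9 was called enriched in the combined list of a ChIP-seq experiment on Drosophila melanogaster larvae. A region was counted as a member when its midpoint lay in the outermost 1 Mb of the arm, which is bases 1 to 1000000 of X, 2L and 3L and bases 26905054 to 27905053 of 3R in FlyBase release 5. Of the 655 members, X held 130, 2L held 187, 3L held 148 and 3R held 190. By the same limits the list of ChIP replicate 1 had 173 members among 6699 regions and that of ChIP replicate 2 had 300 among 10048.

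The series holds 4 libraries from wild-type larvae of the strain Oregon-R (Oregon-R-modENCODE) in the third instar, 2 of them from ChIP DNA and 2 from input DNA. No treatment, transgene or mutation is named for either group, and the chromatin came from homogenized tissue, so values are averages over the cell types of the larva. The antibody, Q2598, was purified by affinity from rabbit serum raised against residues 320 to 419 of Su(var)3-9. Each list gives a first base, a last base and the authors' own enrichment score per region. Region lists of the input libraries were not used here and read depth is unknown. The labels do not tell whether the replicates were separate harvests, so their spread may be technical.

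Su(var)3-9 is a histone H3 methyltransferase whose mark is bound by heterochromatin protein HP1, and its mutations suppress the silencing of genes placed next to pericentric heterochromatin. Fly chromosome ends are not built by telomerase. They carry arrays of the retrotransposons HeT-A, TART and TAHRE, followed inward by telomere-associated satellite repeats that silence inserted transgenes and are known to bind Polycomb group proteins. Further inward lies gene-bearing euchromatin. How much of the terminal arrays the release 5 arm sequences include was not examined, so distances below are counted from the last base of the arm sequence and not from the chromosome terminus.

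The outermost 100 kb of all 4 ends was sparsely covered, in both replicate lists. On 2L that window held no region in replicate 1 and none in replicate 2. On X the covered share was 2.46% (replicate 1) and 4.04% (replicate 2), on 3L at 2.07% and 3.37%, and on 3R at 3.84% and 1.34%. The next 900 kb inward was covered at 5.72% and 10.6% on X, 11.8% and 18.7% on 2L, 7.53% and 17.1% on 3L, and 9.25% and 15.9% on 3R. In each library and at each end the outermost window was lower than the stretch that follows it.

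Averaged over the 4 ends, the outermost 100 kb was covered at 2.14% ± 1.45 (SD over ends) and the next 900 kb at 12.1% ± 2.91, a difference of −9.93 percentage points ± 4.21 (SD over 4 ends). The exact two-sided sign-flip permutation over the 4 ends gave p = 0.12, the smallest that 4 ends allow, and 0.429 when adjusted by the Benjamini-Hochberg method for 8 planned tests. The difference was −6.49 points in replicate 1 alone, −13.4 points in replicate 2 alone and −29.5 points in the combined list. Among the highest-scoring 50% of each list it was −3.73 points. Against the arm interior in place of the next 900 kb it was −7.33 points, and the outermost window was lower at 4 of 4 ends.

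Low windows are not rare along these arms, and the replicate lists must be read against that. Of the 898 windows of 100 kb on the 4 arms outside the centromere-proximal 2 Mb, 13.5% were covered at under 5% in both replicate lists, a limit set after the values were seen. The 4 outermost windows were all under it, as were 5 of the 36 other windows of the ends (13.9%), a share near the background. A window with no covered base in either replicate list, as at the tip of 2L, was found at 0.78% of the 898 positions. Set among the interior windows of its own arm, the outermost window of X was matched or undercut by 21.1% of windows in replicate 1 and 17.5% in replicate 2. For 2L these shares were 7.00% and 4.50%, for 3L 14.4% and 12.6%, and for 3R 20.9% and 0.803%. In the combined list, which covers more of every arm, they were 3.09% on X, 1.50% on 2L, 0.930% on 3L and 0.402% on 3R. These ranks are descriptions with no test. Undetermined bases and the ability to place reads in the terminal sequence were not measured, and their part in the low values was not tested.

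**Figure D1:**
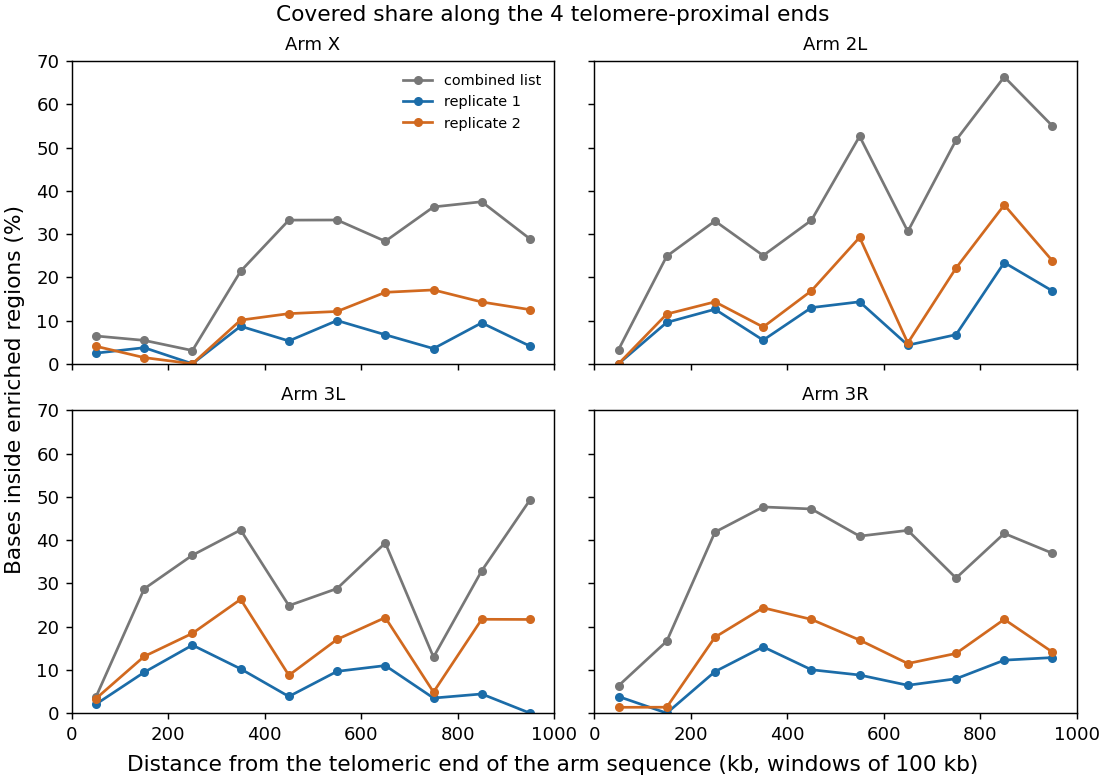
Share of bases inside enriched regions (%, vertical axis) in successive windows of 100 kb by distance from the telomeric end of the arm sequence (kb, horizontal axis), 1 panel per arm; lines are replicate 1 (blue), replicate 2 (orange) and the combined list (grey). In each panel the first window lies at or below 4.04% in the replicate lists and at or below 6.42% in the combined list, and on X the low stretch extends over 3 windows.

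The low stretch differed in length between ends. On X it reached 300 kb: the window from 100 to 200 kb had 3.72% and 1.43% of its bases in regions of replicates 1 and 2, and the window from 200 to 300 kb held no region in either replicate list. The longest uncalled stretch of the X end ran from 168968 to 322810 in replicate 1 (153843 bp) and from 168776 to 322828 in replicate 2 (154053 bp), so that both lists resumed at nearly the same base. In the interior of X, 6 uncalled stretches in replicate 1 and 4 in replicate 2 were at least as long. On 3R it reached 200 kb in the replicate lists, with 0 regions in replicate 1 and 1 region in replicate 2 (1.36% of bases) between 100 and 200 kb. The combined list had 11 regions there (16.6% of bases). On X it covered 5.41% from 100 to 200 kb and 3.06% from 200 to 300 kb. On 2L and 3L the window from 100 to 200 kb was already more densely covered, at 9.56% and 11.5% on 2L and at 9.45% and 13.1% on 3L. Over the outermost 300 kb, compared with the remaining 700 kb, the difference kept its sign on X, 2L and 3R in both replicates, while on 3L it was 2.99 points in replicate 1 and −5.85 points in replicate 2.

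Few members lay in the outermost windows, 4 on X, 3 on 2L, 1 on 3L and 4 on 3R. On X, a region called in both replicates stood 5988 bp from the end of the sequence, at 5989 to 8690 in the combined list (score 0.532). Replicate 1 placed it at 5870 to 8324 (score 0.735) and replicate 2 at 6043 to 8378 (score 0.732), and the 2282 bp they shared formed the longest stretch called in both lists anywhere in the X end. The combined list had 3 more members there. Those at 11315 to 12965 (score 0.667) and 21683 to 22712 (score 0.456) overlapped neither replicate list, and that at 93361 to 94401 (score 0.444) overlapped a replicate 2 region 92863 bp from the end (score 0.469). The next region of replicate 1 on X was 138814 bp from the end. On 3L the outermost 100 kb held a single region in every list, at 66026 to 69792 in the combined list (score 0.554), 67685 to 69750 in replicate 1 (score 0.705) and 66197 to 69561 in replicate 2 (score 0.689). It was the third-highest score among the 148 members of the 3L end. Near the tips of X and 3L, then, both libraries called a region at closely matching positions.

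On 2L and 3R no stretch of the outermost 100 kb was called in both libraries. The first region of 2L started 101791 bp from the end in replicate 1 and 105380 bp in replicate 2, while the combined list added 3 short members nearer the tip, the outermost at 11876 to 12914 (1039 bp, score 0.391), none of which overlapped a replicate region. On 3R replicate 1 had 2 regions, 9906 bp and 92539 bp from the end, and replicate 2 had 1, at a distance of 64348 bp. The outermost combined member of 3R, at 27893187 to 27894908, had a score of 0.253 and overlapped the replicate 1 region (score 0.522) and no replicate 2 region. The other 3 combined members of this window lay at 27810561 to 27812333 (score 0.108), 27815074 to 27816400 (score 0.430) and 27839556 to 27841061 (score 0.381). The first, with the lowest score of all 655 members, overlapped replicate 1 alone. The second overlapped neither replicate list and the third replicate 2 alone.

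Taken as a whole, the telomere-proximal 1 Mb was not uniformly denser or sparser than the interior of its arm, defined as the rest of the arm without the centromere-proximal 2 Mb. The end of 2L was denser, at 10.6% in replicate 1 and 16.8% in replicate 2, against 6.14% and 11.1% in its interior. Its excess was 4.48 and 5.66 percentage points, with a mean of 5.07 ± 0.830 (SD, n = 2), and the end held 1.73 and 1.51 times the covered share of the interior. The end of X was sparser in both replicates, at 5.39% and 9.97% against 5.93% and 12.6%, a difference of −1.58 points ± 1.47 (SD, n = 2). The end of 3L was covered at 6.99% and 15.7% against 6.61% and 11.9%, a difference of 2.11 points ± 2.45 (SD, n = 2) that was smaller than its spread between replicates. The end of 3R was covered at 8.71% and 14.4% against 7.75% and 13.7%, a difference of 0.820 points ± 0.195 (SD, n = 2).

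Replicate 2 had the higher covered share at every end and in every interior, so the difference within a library is the more stable quantity. Averaged over the 4 arms, the ends were covered at 11.1% ± 2.50 (SD over arms) and the interiors at 9.47% ± 0.898, a difference of 1.61 points ± 2.77 (SD over 4 arms). The exact two-sided sign-flip permutation gave p = 0.375 (0.429 adjusted), with 3 of 4 arms higher at the end. Counted as regions, the ends held 59.1 per Mb ± 11.5 and the interiors 51.1 per Mb ± 5.51 (SD over 4 arms). The difference was 8.00 per Mb (exact sign-flip permutation p = 0.250, 0.429 adjusted). It was higher at the end on 3 of 4 arms, and on 2 of 4 in replicate 1 alone. In the combined list the covered shares were 31.5% ± 6.31 and 27.6% ± 3.07 (SD over 4 arms), a difference of 3.95 points (exact p = 0.250, 0.429 adjusted). The 2L end carried much of these differences. Without it the difference in covered share was 0.450 points as a replicate mean and 1.21 points in the combined list. With ends of 0.5 Mb these values were −0.675 and −3.61 points. In such ends the sparse tips weigh more, and the inner part of the 1 Mb counts as interior.

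**Figure D2:**
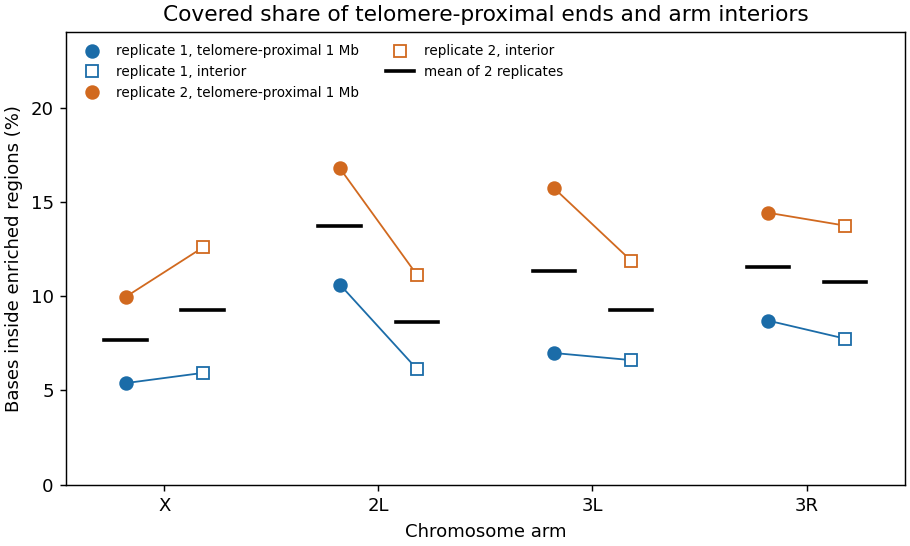
Share of bases inside enriched regions (%, vertical axis) for the telomere-proximal 1 Mb (filled circles) and the interior (open squares) of each arm, in replicate 1 (blue) and replicate 2 (orange); thin lines join values of 1 library and black bars are means of 2 replicates. The 2L end lies above its interior by 4.48 and 5.66 points, and the X end lies below its interior in both libraries.

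Among windows of 1 Mb along its own arm, the 2L end ranked 1 of 21 in replicate 1, 3 of 21 in replicate 2 and 2 of 21 in the combined list. The other ends fell inside the range of their interiors. X ranked 13 of 20 in both replicates, 3L ranked 9 and 3 of 22, and 3R ranked 8 and 10 of 25. In the combined list X ranked 10 of 20, 3L 6 of 22 and 3R 7 of 25. On X and 3L the neighbouring 1 Mb was denser than the end itself. The second Mb of X had covered shares of 10.5%, 28.6% and 48.4% in replicate 1, replicate 2 and the combined list, the highest interior window of that arm in each of the 3 lists. The second Mb of 3L reached 9.36%, 24.6% and 44.6%, the highest of its interior in replicate 2 and in the combined list. With ends of 2 Mb the difference from the interior was 3.48 points, higher at 4 of 4 ends, and that of X turned to 4.93 points.

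**Figure D3:**
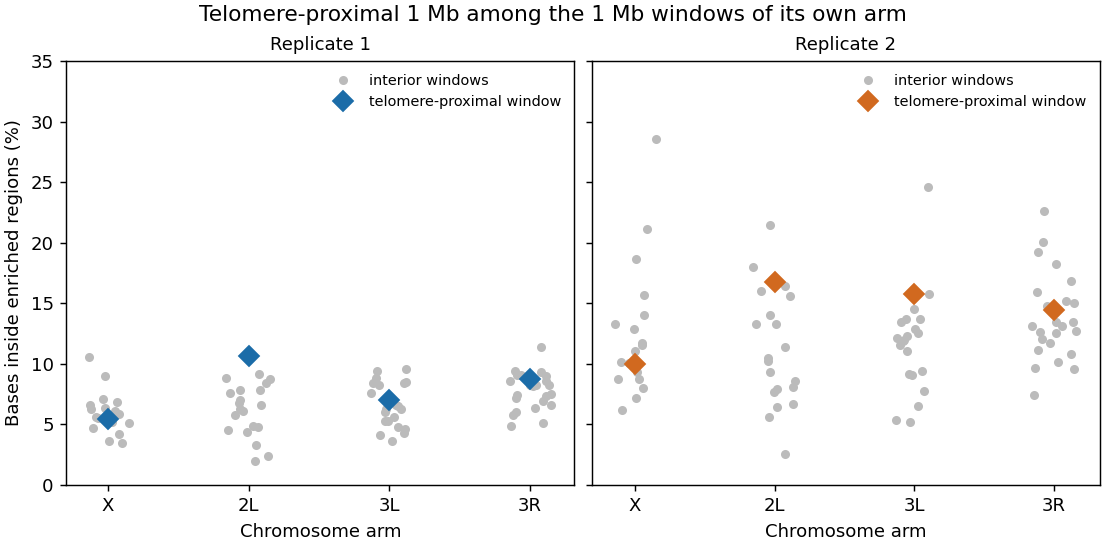
Share of bases inside enriched regions (%, vertical axis) in each window of 1 Mb outside the centromere-proximal 2 Mb, by arm, for replicate 1 (left) and replicate 2 (right); diamonds are the telomere-proximal windows and grey points the interior windows of the same arm, spread sideways for visibility. The 2L diamond is above all interior windows in replicate 1, and the highest grey point of X in replicate 2, at 28.6%, is the window next to its end.

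The densest part of any end was the inner part of the 2L end. Its window from 800 to 900 kb reached 23.4% in replicate 1, 36.7% in replicate 2 and 66.3% in the combined list (replicate mean 30.1% ± 9.42, SD, n = 2), and 15.7% of its bases lay in both replicate lists at once. The window from 900 to 1000 kb followed with 16.8%, 23.8% and 55.0%. The 3 longest stretches of the 2L end called in both lists lay here, at 898046 to 902351 (4306 bp, scores 0.807 and 0.908, the longest at any of the 4 ends), 823888 to 826863 (2976 bp, scores 0.572 and 0.540) and 850559 to 853423 (2865 bp, scores 0.846 and 0.789). A pair of the longest combined members, 8446 and 8290 bp, belonged to the same end.

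By replicate mean, the other ends had lower peaks, on 3L and 3R at other distances. The densest window of 3L was that from 300 to 400 kb, at 10.2% and 26.3% (mean 18.3% ± 11.4, SD, n = 2), and that of 3R was also that from 300 to 400 kb, at 15.3% and 24.4% (19.8% ± 6.39). On X it was the window from 800 to 900 kb, at 9.47% and 14.3% (11.9% ± 3.41). The sparsest windows, also by replicate mean, were those from 200 to 300 kb on X, from 0 to 100 kb on 2L, from 0 to 100 kb on 3L and from 100 to 200 kb on 3R. The window from 900 to 1000 kb of 3L showed how far the libraries could part, with 0 regions in replicate 1 and 11 regions (21.7% of bases) in replicate 2.

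At the remaining ends no stretch called in both replicates exceeded 2898 bp. On 3L the 3 longest lay at 198306 to 201203 (2898 bp, scores 0.785 and 0.495), 223137 to 225218 (2082 bp, scores 0.760 and 0.618) and 539738 to 541786 (2049 bp, scores 1.25 and 0.566). On 3R they lay at 27549884 to 27552449 (2566 bp, scores 1.08 and 0.489), 27491094 to 27493121 (2028 bp, scores 0.700 and 0.634) and 26911453 to 26913323 (1871 bp, scores 0.991 and 0.532). On X, after the one at the tip, they lay at 926233 to 928296 (2064 bp, scores 1.72 and 0.849) and 322829 to 324846 (2018 bp, scores 0.886 and 0.752). The X stretch at 926233 had the highest replicate 1 score of any region of the 4 ends. None of these reached the longest shared stretch of the interior of its arm. That was 6948 bp on X, 4498 bp on 2L, 6851 bp on 3L and 9758 bp on 3R. An interior held 285 to 511 shared stretches and an end 19 to 35, so the maxima are not drawn from sets of like size. Per Mb the ends of X, 2L, 3L and 3R held 20, 35, 19 and 22 of them, and the interiors 14.7, 15.7, 17.1 and 20.5. Their median length was 1344, 1034, 1489 and 1014 bp at the ends and 1389, 1411, 1379 and 1387 bp in the interiors. These differences were not tested.

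Agreement between the libraries was asked next. Of the 655 members, 90 (13.7%, 95% Wilson interval 11.3 to 16.6) were overlapped by at least 1 bp in both replicate lists, against 15.6% of all combined regions of the genome and 10.4% (9.87 to 10.9) of the 13618 in the interiors of the same arms. A further 75 members were overlapped in replicate 1 alone, 196 in replicate 2 alone and 294 in neither. The share in neither was 44.9% (41.1 to 48.7), against 44.4% over all combined regions and 48.0% (47.2 to 48.9) in the interiors. The share overlapped in both was 13.8% (8.94 to 20.8) at the X end, 17.6% (12.9 to 23.7) on 2L, 11.5% (7.30 to 17.6) on 3L and 11.6% (7.77 to 16.9) on 3R. In the 4 interiors it was 10.1 to 10.6%, which lies inside the interval of every end but 2L. The end was higher on 4 of 4 arms, by 3.31 percentage points ± 3.09 (SD over 4 arms). The exact sign-flip permutation gave p = 0.12 (0.429 adjusted), the smallest that 4 arms allow. Without 2L the difference was 1.91 points. With at least 50% of the combined region covered by each replicate list it was 1.75 points, higher on 3 of 4 arms. Members overlapped in both lists had a median length of 2884 bp, against 1286 bp for those in neither. Among combined regions of 1500 to 3000 bp, a range chosen after seeing the data, the difference was 1.35 points. Overlap also depends on how much of a window each list covers, and the ends of 2L, 3L and 3R were covered more than their interiors. No chance model was used, and the parts of length and of covered share in the difference were not tested.

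Counted in bases, agreement at the ends had no uniform direction against the interiors. The Jaccard index, which is shared bases over bases in either list, was 0.195 at the X end, 0.206 at the 2L end, 0.154 at the 3L end and 0.126 at the 3R end. In the interiors it was 0.121, 0.148, 0.139 and 0.150. It was higher at the end on 3 of 4 arms and lower on 3R, a mean difference of 0.0305 (exact sign-flip permutation p = 0.375, 0.429 adjusted). No chance model was used for this index either. Across the 96 overlapping pairs of replicate regions in the ends, scores had a Spearman correlation of 0.19 and a Pearson correlation of 0.32, against 0.25 and 0.41 over 1479 pairs in the interiors. Pairs are sites of the same 2 libraries and not independent replicates.

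In the replicate lists, scores and lengths at the ends were close to those of the interiors. Over the 4 ends replicate 1 had a median score of 0.614 and replicate 2 one of 0.524, where the interiors had 0.606 and 0.531. As a mean over arms the difference was −0.000589 ± 0.00919 (SD over 4 arms), with 2 arms higher and 2 lower (exact sign-flip permutation p = 1, 1 adjusted). The median length over the ends was 1712 and 1642 bp against 1648 bp in both interiors, a mean difference over arms of 38.9 bp ± 59.3 (SD over 4 arms, exact sign-flip permutation p = 0.375, 0.429 adjusted). Without replicate 1 that difference was −11.2 bp. In the combined list the median length was 1629.5, 1604, 1805 and 1589.5 bp at the ends of X, 2L, 3L and 3R. It was shorter in each of their interiors, at 1536, 1486, 1475.5 and 1506 bp, a difference that was not tested. X members had the highest median score of the 4 ends in every list, 0.711, 0.611 and 0.431 in replicate 1, replicate 2 and the combined list, as the X interior had among the interiors, with 0.694, 0.614 and 0.443.

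The centromere-proximal 2 Mb at the other pole of these arms differed most from the ends in 2 arms. Its covered share was 37.5% ± 4.61 (SD, n = 2) on 3L against 11.4% ± 6.19 at the telomeric end, and 21.8% ± 2.68 on 2L against 13.7% ± 4.36. On X it was 9.09% ± 1.63 against 7.68% ± 3.24, and on 3R 11.1% ± 3.71 against 11.6% ± 4.04. Over the 4 arms the end was lower by 8.77 points ± 12.1 (SD over 4 arms), lower on 3 of them, with an exact sign-flip permutation p = 0.250 for this comparison, which was added after the data were seen. Combined regions with a score above 1 made up 0.611% of the members (4 of 655, 95% Wilson interval 0.238 to 1.56), 0.330% of the interior regions (0.247 to 0.442) and 8.48% of the centromere-proximal regions (6.98 to 10.3). The centromere-proximal share came from 3 arms, with 48 of 307 regions on 3L, 24 of 219 on 2L and 22 of 245 on X, against 0 of 338 on 3R.

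The 4 members with a score above 1 were all absent from both replicate lists, a limit and a count chosen after the values were seen. They were X 721719 to 722719 (score 3.28, 1001 bp), 3L 408717 to 409761 (score 2.39, 1045 bp), X 326632 to 328524 (score 1.57, 1893 bp) and 3R 27110355 to 27111422 (score 1.10, 1068 bp). The first, second and last are shorter than 1301 bp, the shortest region of either replicate list. The same holds for 29.3% of all members and 35.1% of the interior regions. Of all members, 44.9% were in neither list. An overlap of 1 bp with a longer replicate region would have counted, and the part of length in their absence was not tested. Of the 45 interior regions with a score above 1, 24 were in neither replicate list, and 21 of those 24 were also shorter than 1301 bp. The highest-scoring members that were called in both replicates were X 925807 to 928317 (0.988), 2L 739127 to 742189 (0.913, with 1.11 in replicate 1 and 0.928 in replicate 2), 2L 849864 to 854421 (0.699), 3R 27549811 to 27552571 (0.678), 3R 26911268 to 26913460 (0.676), 2L 895333 to 903622 (0.648), 3L 539638 to 543638 (0.592) and 3L 66026 to 69792 (0.554) among those named by the rule of 3 highest scores per end.

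**Figure D4:**
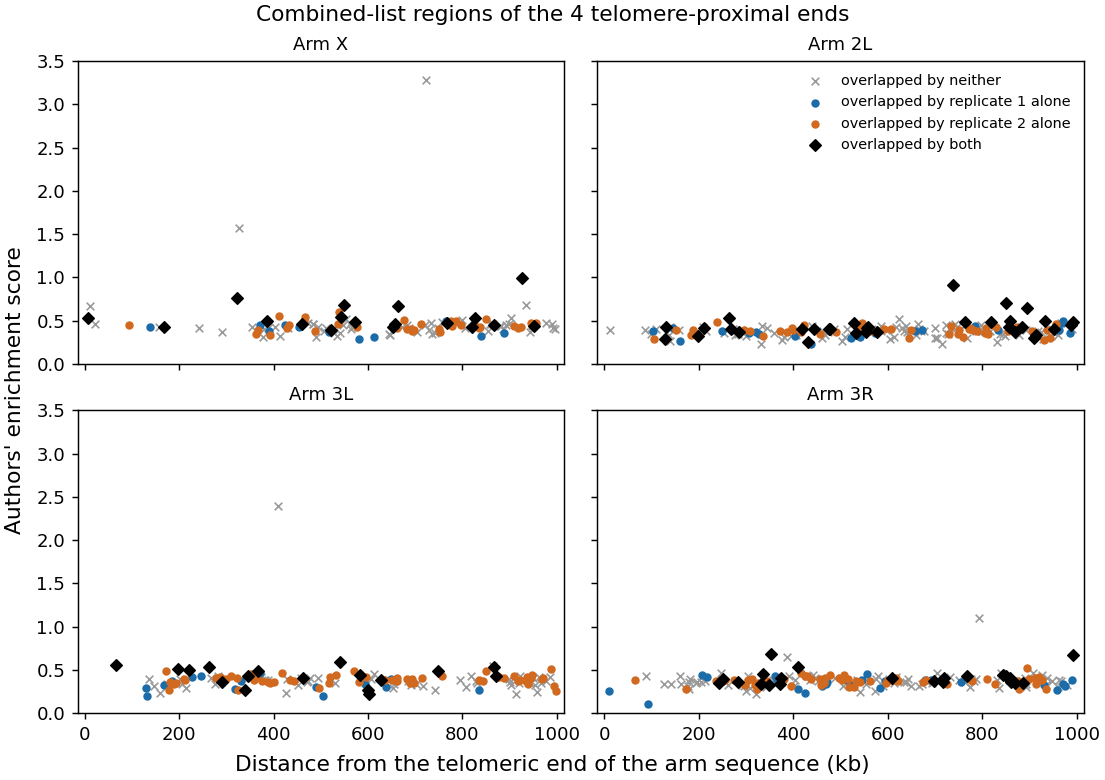
Authors' enrichment score (vertical axis) of the combined-list members against distance from the telomeric end of the arm sequence (kb, horizontal axis), 1 panel per arm; black diamonds are overlapped by both replicate lists, blue and orange points by replicate 1 or replicate 2 alone, and grey crosses by neither. Nearly all members lie below a score of 1, and the 4 above it, up to 3.28 on X, are grey crosses.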

How the data were processed

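ChIP and input DNA of wild-type larvae were sequenced, and the deposited lists of enriched regions were used, one per ChIP library and one for the replicate set. The submitters' processing notes name Bowtie 0.12.7. Coordinates are FlyBase release 5, per the file headers. The authors assigned each region a score of unnamed scale and log base. How the aligner was set, which caller and threshold made the lists, and how input reads entered them was not given in the sources used here. Of 5 depleted regions, which were left out, 0 lay in the ends.

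Members were placed by midpoint, and regions were clipped to each window for covered shares. Values are means ± SD over 2 replicates or 4 arms. Ends and interiors were compared by exact sign flips over arms, with Benjamini-Hochberg adjustment over 8 tests; these p-values describe arms and not the spread between libraries. Wilson intervals (95%) of shares reflect counting error alone, and adjacent regions are not independent. Alternatives were other end sizes, other interiors, subsets by score, length or arm, merged regions and each replicate alone. Interval functions were tested on simulated data, with 50 of 50 lists equal to a direct count. Named regions were, per end, the combined region nearest the tip, the 3 highest scores, the 3 longest stretches called in both replicates and the densest and sparsest windows of 100 kb. Members, interiors and lists were chosen with earlier results of these data known. Genes and sequences are not given, since the gene table used is of release 6 and no genome of release 5 was used here. Python 3.11.15, NumPy 2.4.6, SciPy 1.17.1 and matplotlib 3.10.9 were used.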

Additional observations from a re-analysis of the deposited data

Results flagged for a closer look

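In covered share, the end of X and the ends of 2L, 3L and 3R differed from their interiors in opposite directions in both libraries. In regions per Mb this did not hold for 3L, at 37 against 37.6 in replicate 1 and 80 against 63.2 in replicate 2. Covered share was lower at the X end by a mean of −1.58 percentage points (−0.541 in replicate 1 and −2.62 in replicate 2) and higher at the other ends in each replicate, by 4.48 and 5.66 points on 2L, 0.377 and 3.84 on 3L, and 0.958 and 0.683 on 3R. The difference between arms was not tested. With ends of 2 Mb the X value was 4.93 points, so its direction holds for the outermost 1 Mb and not for the wider end. The mean of 3L was −0.286 points with the proximal 2 Mb kept in the comparison, and that of 3R was −0.275 with ends of 0.5 Mb, −0.268 in the top 50% by score and −0.156 in the longest 50%.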

How the results depend on the processing

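Of 90 alternatives for the comparisons across arms, 79 kept the direction; no p-value could pass 0.05 with 4 arms or fewer, so this says nothing about the tests. The sparse outermost 100 kb kept its direction in all 12 alternatives run (−29.5 to −3.73 points; −13.4 without replicate 1 and −6.49 without replicate 2; exact p 0.12 to 0.250), and the share of members in both lists in all 10 that keep both lists (1.35 to 4.09 points). With 1 list left out this share counts overlap with the other list alone, and its difference was 3.55 points without replicate 1 and 2.72 without replicate 2. With ends of 0.5 Mb the difference from the interior turned to −0.675 points in covered share. Counted as regions it was −3.06 per Mb, and in the combined list −3.61 points. Such ends give the sparse tips more weight and also count the inner part of the 1 Mb as interior, and these cannot be told apart here. The median score difference turned to 0.00293 without replicate 2 (−0.00411 without replicate 1), 0.0165 with ends of 2 Mb, 0.000579 in the top 50% by score, 0.00296 without arm 3L and 0.000984 without arm 3R. Median length turned to −11.2 bp without replicate 1 (89.1 without replicate 2) and −18.2 bp in the top 50% by score, and the Jaccard difference to −0.0165 with the proximal 2 Mb kept in the comparison. The causes of these changes were not tested. For single ends, 12 of 24 alternatives moved the difference by more than the spread between replicates; X turned to 4.93 points (ends of 2 Mb), 3L to −0.286 (proximal 2 Mb kept) and 3R to −0.275 (ends of 0.5 Mb), −0.268 (top 50% by score) and −0.156 points (longest 50%). The Jaccard index needs both lists, so it was not computed without a replicate. The alternatives with 300 kb, the interior or the combined list for the outermost window, the length range of 1500 to 3000 bp and the centromere-proximal comparison were chosen after seeing the data. No paired analysis was possible because the groups that share replicate numbers are ChIP and input, and the lists at hand are of ChIP alone. Depth is unknown, so a region missing from a list need not be absent from the chromatin.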
